A study of Homo sapiens with 18 samples.

Results

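The genes described here encode the machinery of mitosis: 56 genes for the kinases and cyclins of mitotic entry, the spindle checkpoint, anaphase, kinesin motors, the kinetochore, the spindle, condensin and cytokinesis, with 3 genes of transcription and proliferation. They were taken by name from a list, and all 56 were found among 28087 genes and among the 17034 that passed the filter on low counts. They were followed in LNCaP, a human prostate cancer line labelled WT, kept for 48 h in 1 of 6 media with 3 libraries each. The control medium was RPMI with heat-inactivated serum, and 3 groups received conditioned medium from THP-1 macrophages (derived from a monocytic leukaemia line), diluted in that medium. These macrophages were M0, or had been polarised to M1 or to M2. For 2 further groups the M1 medium also held 0.7 μmol/l IKK16, which the labels call an NFκB inhibitor and which acts on the IκB kinases, or as much DMSO alone. The control, M0, M1 and M2 groups are not labelled with DMSO. The macrophages are of 1 line and the receiving cells of 1 cancer line.

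A cell that enters mitosis activates CDK1 with cyclin B, condenses its chromosomes with condensin and topoisomerase II, and builds a spindle on which kinesins slide and cross-link microtubules. Kinetochores tie chromosomes to the spindle, the checkpoint holds back anaphase until each is attached, and the midzone then directs cytokinesis. Most of these genes are transcribed mainly in G2 and M phase, under the DREAM complex, B-MYB and FOXM1. In such bulk samples, fewer dividing cells and less of each RNA per dividing cell cannot be told apart.

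The libraries held between 24201728 and 33813345 rounded counts in the transcripts that stood for the named genes. Levels are given as CPM, counts scaled to a library of 1000000 after TMM scaling, for each library in the order of its replicate number. Across the 56 genes the relative SD within a group had a median of 5.42%. Nothing in the labels says that replicates were cultured separately. The p-values therefore reflect the spread of these libraries alone, which may be technical. All 7 luminal prostate markers reported here had a mean above 1 CPM in each group. Their summed level was 7172 to 7640 CPM in control, 2289 to 2377 CPM in M1 medium and 3032 to 3090 CPM with IKK16. In M1 medium the means of KLK3, KLK2, TMPRSS2 and HOXB13 were lower (KLK3 154 against 3710 CPM), those of FOLH1 (1030 against 863 CPM) and KRT8 (494 against 351 CPM) were higher, and KRT18 was at 264 against 267 CPM. The 16 macrophage and monocyte markers checked summed to 228 to 232 CPM in control and 264 to 291 CPM in M1 medium, of which CSF1R made up 224 and 196 CPM. PTPRC, which defines leukocytes, was at 0 CPM in M1 medium, and TYROBP had no count in any library. Among markers with a higher mean in M1 medium were CD68 (36.9 against 4.93 CPM), ITGAM (20 against 0.149 CPM) and S100A9 (19.2 against 0.0912 CPM). The part of these luminal and macrophage levels in the results was not tested.

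The promoters of these genes are shown first. Whether they have a part in the results below was not tested. Promoters of G2/M genes often carry a cell cycle homology region (CHR), read by DREAM and MuvB, beside CCAAT boxes bound by NF-Y. RefSeq start sites (GRCh38.p14) were matched for 48 of the 56 genes. AURKA, BIRC5, BUB3, FOXM1, RACGAP1, TPX2, TTK and UBE2C had no entry. The window from 250 bases before to 50 bases after the start was searched on both strands. The letters sought were TTTGAA or TTCGAA, as the core of the CHR, and CCAAT. Other forms of the CHR were not searched. A match of one motif may share bases with a match of the other. The 150 bases before the start of 5 genes are given 5′ to 3′, with matches on either strand in capitals. PLK1, CCNB2 and CDC20 hold both motifs, KIF15 a CHR match alone, and CCNB1 CCAAT alone.
PLK1 (chr16:23678739-23678888, plus strand): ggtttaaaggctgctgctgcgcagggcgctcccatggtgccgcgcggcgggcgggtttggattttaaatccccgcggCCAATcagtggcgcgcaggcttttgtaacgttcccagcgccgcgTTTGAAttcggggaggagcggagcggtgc
CCNB2 (chr15:59104996-59105145, plus strand): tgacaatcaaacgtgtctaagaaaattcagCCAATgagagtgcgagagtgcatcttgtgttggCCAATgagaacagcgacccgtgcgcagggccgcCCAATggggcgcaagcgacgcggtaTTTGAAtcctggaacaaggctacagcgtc
CDC20 (chr1:43358831-43358980, plus strand): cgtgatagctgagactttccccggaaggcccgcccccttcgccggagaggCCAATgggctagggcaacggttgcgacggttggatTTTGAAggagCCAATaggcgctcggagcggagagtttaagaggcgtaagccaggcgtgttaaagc
KIF15 (chr3:44761644-44761793, plus strand): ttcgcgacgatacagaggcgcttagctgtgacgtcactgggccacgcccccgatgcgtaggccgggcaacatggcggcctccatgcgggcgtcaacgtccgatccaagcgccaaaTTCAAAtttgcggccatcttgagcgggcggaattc
CCNB1 (chr5:69167000-69167149, plus strand): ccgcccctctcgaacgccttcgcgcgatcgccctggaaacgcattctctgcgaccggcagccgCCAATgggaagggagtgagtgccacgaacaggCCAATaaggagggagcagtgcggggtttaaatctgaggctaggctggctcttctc
In PLK1 and CCNB2 the CHR match begins 29 bases before the start. In CDC20 the match shown begins 65 bases before the start, between CCAAT boxes at 100 and 55. CCNB2 carries CCAAT at 120, 87 and 54 bases before the start.

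A CHR match lay in the window of 36 of the 48 genes (75%), against 11.7% of the promoters of all genes tested. CCAAT was found in 35 (72.9%, against 36.5%), and both motifs in 28 (58.3%, against 4.9%). By class, CHR was found in 9 of 11 kinesins, 5 of 6 condensin and topoisomerase genes, 5 of 8 kinetochore genes and 3 of 7 entry kinases and cyclins. A match describes these letters and not binding, and no match says only that the letters are not in this window. The median log2 fold change in M1 medium against control was -2.03 for the 36 genes with a CHR match and -2.06 for the 12 without. Among the other genes tested, 613 held both motifs, and 15.5% of these were lower by at least 2-fold in M1 medium. The share was 8.35% of 874 with CHR alone, 7.27% of 4114 with CCAAT alone and 6.51% of 7383 with neither. The differences between these shares were not tested.

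The first comparison sets M1 medium against control medium. All 56 genes fell in M1 medium, 55 of them by at least 2-fold. Their median log2 fold change was -2.03, which is 4.09-fold lower, and the median gene stood at 24.4% of its control level. The range ran from -2.72 in KIF15 to -0.43 in BUB3. Over all genes tested, 31.9% were lower and 7.91% were lower by at least 2-fold. Summed over the 56 genes, the level was 4925, 4992 and 5150 CPM in control and 1481, 1444 and 1418 CPM in M1 medium. The libraries of these groups did not overlap for any of the 56 genes, where 32.6% of all genes were apart in this direction. Calls used the edgeR quasi-likelihood test with Benjamini-Hochberg adjustment over all genes tested, and the adjusted p of the 56 genes ranged from 6.73e-20 to 3.71e-08. They also fell against M0 medium (56 of 56, median -1.96, background 33%) and against M2 medium (56 of 56, median -2.08, background 33.2%). These comparisons share the M1 libraries.

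The second comparison sets IKK16 against DMSO, both in M1 medium. All 56 genes rose with IKK16, 14 of them by at least 2-fold. Their median log2 fold change was 0.88 (1.84-fold), from 0.25 in BUB3 to 1.18 in NUF2. The edgeR adjusted p was largest in MKI67, at 0.00169. Over all genes tested, 14.4% were higher and 0.91% were higher by at least 2-fold. The summed level was 1607, 1659 and 1564 CPM with DMSO and 2875, 2802 and 2810 CPM with IKK16, and the groups were apart for each of the 56 genes (23.1% of all genes). Against control, all 56 were still lower with IKK16 (median log2 fold change -0.88, background 25.4%). The median gene stood at 54.3% of control with IKK16 and at 29.2% with DMSO. With IKK16, 13 genes were still lower than control by at least 2-fold (4.27% of all genes), led by KIF15 (-1.35 ± 0.07 SE) and ESPL1 (-1.30 ± 0.07).

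**Figure D1:**
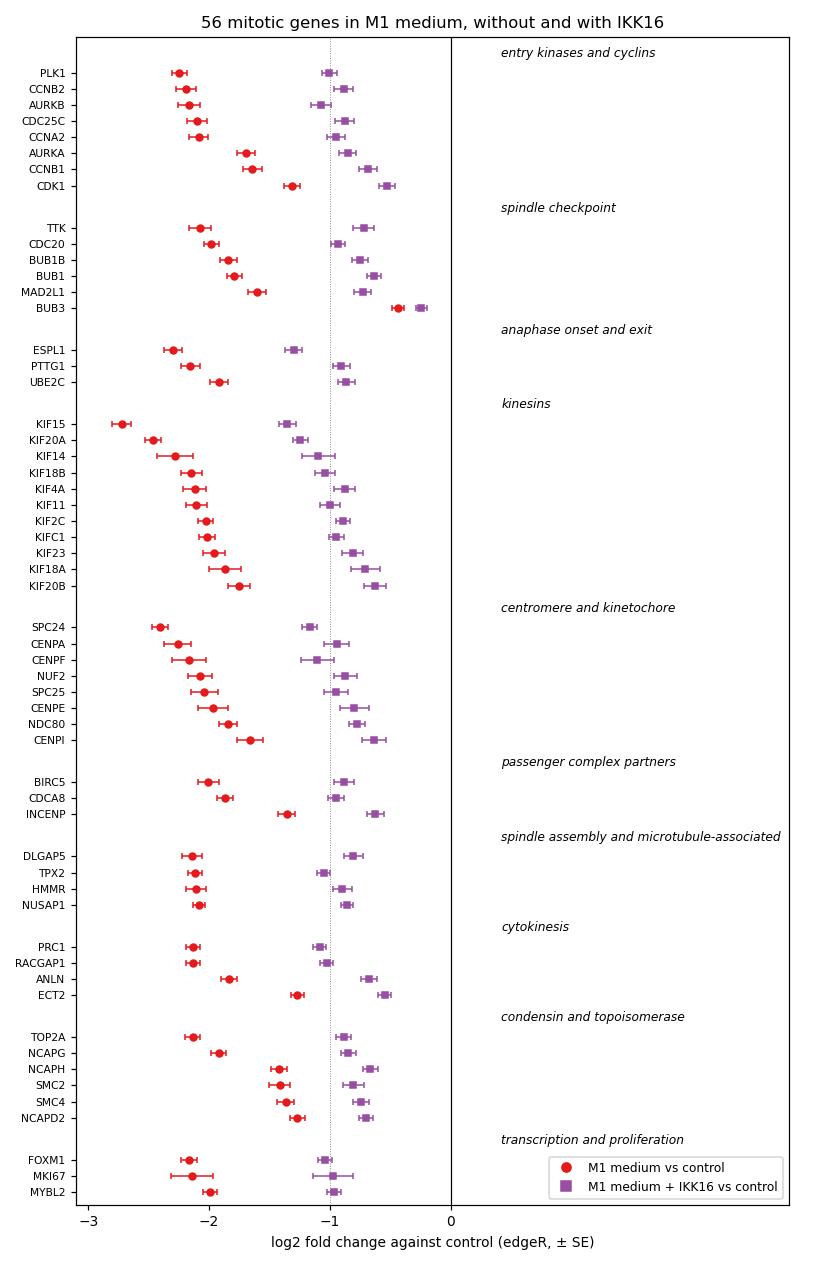
Log2 fold change (x axis, edgeR, bars are SE) of each of the 56 genes (y axis, by class) against control, in M1 medium (circles) and in M1 medium with IKK16 (squares). Every point lies below 0, each square lies to the right of its circle, and BUB3 lies nearest to 0.

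Mitotic entry is driven by CDK1 with its cyclins, by the phosphatase CDC25C, and by the Aurora and Polo kinases. Among these 8 genes the median log2 fold change in M1 medium was -2.09. PLK1 (chromosome 16, 23678889 to 23690367), the Polo kinase that matures centrosomes and promotes entry, was at 104, 108 and 99.99 CPM in control and 21.9, 20.6 and 23.3 CPM in M1 medium. It fell by 2.25 ± 0.06 (SE) on the log2 scale (edgeR adjusted p = 5.12e-19). PLK1 was at 29.4, 30.3 and 26.8 CPM with DMSO and 51.5, 48.4 and 55.8 CPM with IKK16, so that no library of one group reached the other. CDK1, the kinase that drives entry, fell least in this class, from 242, 262 and 255 CPM to 108, 107 and 90.7 CPM (-1.31 ± 0.07, edgeR adjusted p = 5.599e-14). It rose with IKK16 from 109, 114 and 104 CPM to 177, 174 and 175 CPM. CCNB2, a B-type cyclin, had a log2 fold change of -2.19 ± 0.08 in M1 medium and 1.16 ± 0.09 with IKK16. Within a library, the ratio of CCNB2 to CDK1 was 0.289 to 0.328 in control, 0.159 to 0.176 in M1 medium, 0.16 to 0.191 with DMSO and 0.239 to 0.248 with IKK16. AURKB, the kinase of the chromosomal passenger complex, fell by 2.17 ± 0.09 and AURKA, the kinase of the spindle poles, by 1.69 ± 0.07. AURKA is uncertain: its copy AURKAP1 held 899 counts in the control libraries against 3084.5 for AURKA, and 278 against 959.5 in M1 medium, and reads may be divided between them.

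The spindle checkpoint genes ranged from -2.07 to -0.43. BUB3 (chromosome 10, 123154402 to 123170467), a WD-repeat protein that brings BUB1 and BUBR1 to kinetochores, changed least of the 56. It was at 122, 128 and 131 CPM in control and 93.4, 97.2 and 91.5 CPM in M1 medium (-0.43 ± 0.05, edgeR adjusted p = 3.71e-08). With IKK16 it was at 109.8, 107 and 106 CPM, above the 90.8, 92.3 and 87.1 CPM with DMSO (0.25 ± 0.05, edgeR adjusted p = 0.000395). TTK (chromosome 6, 80004649 to 80042527), the MPS1 kinase that starts checkpoint signalling, led the class, at 41.2, 41.1 and 47.8 CPM in control and 10.4, 10.8 and 9.71 CPM in M1 medium (-2.07 ± 0.09). The ratio of TTK to BUB3 within a library was 0.321 to 0.364 in control and 0.106 to 0.112 in M1 medium. It was 0.128 to 0.143 with DMSO and 0.228 to 0.27 with IKK16. TTK and BUB3 are the lowest and highest of their class in M1 medium, so the shift of their ratio there follows from that choice. BUB3 also rose least of the class with IKK16, so the shift with IKK16 follows in part from the choice. CDC20, the activator of the anaphase-promoting complex that the checkpoint restrains, fell by 1.98 ± 0.06, and MAD2L1, which binds it, had a log2 fold change of -1.604 ± 0.07. The kinase BUB1 fell by 1.79 ± 0.06 and rose by 1.12 ± 0.06 with IKK16. BUB1B, which encodes BUBR1, fell by 1.84 ± 0.07. It is uncertain because the overlapping readthrough gene BUB1B-PAK6 held 1512 counts in control and 450.5 in M1 medium, against 8847 and 2478.5 for BUB1B.

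Anaphase begins when separase cuts cohesin. ESPL1 (chromosome 12, 53268299 to 53293638), which encodes separase, was at 46.8, 46.9 and 44.4 CPM in control and 9.43, 8.72 and 9.84 CPM in M1 medium (-2.301 ± 0.07, edgeR adjusted p = 4.24e-18). It was at 19.5, 18.97 and 17.6 CPM with IKK16 and 11.3, 12.2 and 10.7 CPM with DMSO, and the first is 40.6% of control. PTTG1, the securin that inhibits separase, fell by 2.15 ± 0.08 and rose by 1.12 ± 0.08 with IKK16, to 53.5% of control. PTTG1 is uncertain, since its near-identical copy PTTG2 held 1048 counts in control and 254.5 in M1 medium, against 2619.5 and 593.5 for PTTG1. UBE2C, a ubiquitin-conjugating enzyme of the anaphase-promoting complex, fell by 1.92 ± 0.08, from 45.7, 44.4 and 43.8 CPM to 10.9, 13.6 and 10.9 CPM.

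Kinesins were the largest class, and their 11 genes had a median log2 fold change of -2.105 in M1 medium. KIF15 (chromosome 3, 44761794 to 44868687), a plus-end motor that can maintain a bipolar spindle, fell most of all 56 genes. It was at 34.8, 35.6 and 35.7 CPM in control and 4.94, 5.72 and 5.43 CPM in M1 medium (-2.72 ± 0.08, edgeR adjusted p = 8.66e-19). It was at 14.3, 13.7 and 13.6 CPM with IKK16 and 6.9, 5.68 and 5.997 CPM with DMSO. With IKK16 it reached 39.2% of control, the lowest such share among the 56. KIF11, the tetrameric Eg5 motor that pushes spindle poles apart, fell by 2.104 ± 0.09, from 60.1, 58.6 and 67.4 CPM to 13.99, 15.4 and 13.9 CPM. Midzone kinesins fell as well: KIF20A, which carries the passenger complex there, by 2.47 ± 0.07, and KIF23, the motor of centralspindlin, by 1.96 ± 0.09. KIF20B, a motor of cytokinesis, fell least of the class, from 34.4, 31.3 and 36.7 CPM to 9.43, 9.88 and 11.1 CPM (-1.75 ± 0.09). KIF18A, which limits chromosome oscillation, fell by 1.87 ± 0.13.

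At the centromere, CENPA replaces histone H3, and the NDC80 complex (NDC80, NUF2, SPC24 and SPC25) binds microtubules. The 8 genes of this class had a median log2 fold change of -2.06 in M1 medium and 0.93 with IKK16 against DMSO. SPC24 (chromosome 19, 11145493 to 11155782) led the class, at 67.3, 75.1 and 63.5 CPM in control and 12.4, 13.4 and 13.01 CPM in M1 medium (-2.41 ± 0.07, edgeR adjusted p = 4.32e-19). Its partners fell by 1.84 ± 0.07 (NDC80), 2.07 ± 0.10 (NUF2) and 2.04 ± 0.11 (SPC25). The ratio of SPC25 to NUF2 was 0.486 to 0.66 in control and 0.493 to 0.66 in M1 medium, ranges that overlap. The ratio of SPC24, the lowest of the class, to NDC80 was 0.791 to 1.1 in control and 0.622 to 0.65 in M1 medium. It was 0.746 to 0.774 with DMSO and 0.677 to 0.758 with IKK16, ranges that overlap, and the mean with IKK16 (0.717) was not above that with DMSO (0.758). NUF2 had the largest rise of the 56 genes with IKK16, from 12.6, 13.2 and 11.8 CPM to 28.9, 27.1 and 29.3 CPM (1.18 ± 0.10, edgeR adjusted p = 8.71e-09). CENPA fell by 2.26 ± 0.11. CENPI, which helps to load CENPA, fell least of the class, from 21.9, 19.3 and 20.03 CPM to 5.45, 7.97 and 5.98 CPM (-1.66 ± 0.11).

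The chromosomal passenger complex joins AURKB to INCENP, survivin and borealin. BIRC5 (chromosome 17, 78214253 to 78225635), which encodes survivin, was at 154, 176 and 142 CPM in control and 38.6, 43.3 and 35.7 CPM in M1 medium (-2.004 ± 0.09). CDCA8, which encodes borealin, fell by 1.87 ± 0.07. The scaffold INCENP went from 76.02, 78.98 and 72.3 CPM to 29.7, 27.4 and 31.8 CPM (-1.35 ± 0.07) and rose by 0.44 ± 0.07 with IKK16 (edgeR adjusted p = 5.78e-05). The ratio of BIRC5 to INCENP was 1.96 to 2.23 in control and 1.12 to 1.58 in M1 medium. It was 1.24 to 1.4 with DMSO and 1.7 to 1.77 with IKK16. BIRC5 and INCENP are also the lowest and highest of their class in M1 medium, so the shift there follows from that choice. With IKK16 against DMSO, BIRC5 rose most (0.86) and INCENP least of the class, so the same holds for the shift with IKK16.

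The 4 genes of spindle assembly lay between -2.14 and -2.08 in M1 medium. DLGAP5 (chromosome 14, 55148135 to 55191585), which stabilises kinetochore fibres, was at 92.9, 98.7 and 100.3 CPM in control, 24, 23.99 and 18.1 CPM in M1 medium, 25.6, 24.1 and 24.4 CPM with DMSO and 58.9, 54.8 and 53.5 CPM with IKK16. NUSAP1, a microtubule-bundling protein, was at 186, 189.5 and 201 CPM in control and 46.5, 45.6 and 44 CPM in M1 medium, and rose by 1.03 ± 0.05 with IKK16 (edgeR adjusted p = 1.095e-12). HMMR, a spindle-associated hyaluronan receptor, rose by 1.18 ± 0.08 with IKK16, from 39.7, 39.1 and 36.1 CPM to 85.8, 84.2 and 90.1 CPM. TPX2, which activates AURKA on the spindle, fell by 2.12 ± 0.06 in M1 medium.

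Cytokinesis needs the bundler PRC1, the centralspindlin partner RACGAP1, the exchange factor ECT2 and the scaffold anillin (ANLN). PRC1 (chromosome 15, 90966040 to 90994535) was at 139.7, 139 and 145 CPM in control and 31.9, 30.4 and 34.3 CPM in M1 medium (-2.13 ± 0.06, edgeR adjusted p = 1.23e-19). RACGAP1 fell by 2.13 ± 0.06 and ANLN by 1.84 ± 0.07. ECT2, which activates RhoA at the cleavage plane, fell least of the class, from 149.6, 147 and 169.9 CPM to 65.2, 66.3 and 62.3 CPM (-1.27 ± 0.06). With IKK16 it stood at 68.5% of control, and PRC1 at 47.2%. The ratio of KIF23 to RACGAP1, partners in centralspindlin, was 0.469 to 0.552 in control and 0.56 to 0.616 in M1 medium, ranges that lie close to each other.

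The condensin and topoisomerase genes had a median of -1.42 in M1 medium, nearer to 0 than that of any other class. TOP2A (chromosome 17, 40388525 to 40417896), which untangles sister DNA, was at 212, 202 and 235 CPM in control and 51.03, 46.4 and 50.1 CPM in M1 medium (-2.14 ± 0.06). NCAPG, a condensin I subunit, fell by 1.92 ± 0.06. NCAPD2, its partner, went from 224, 209.8 and 218 CPM to 94.5, 81.3 and 94.6 CPM (-1.27 ± 0.06, edgeR adjusted p = 1.100e-14). With IKK16 it was at 135, 132 and 133 CPM, 0.42 ± 0.06 against DMSO on the log2 scale (edgeR adjusted p = 1.56e-05). The core subunits SMC2 and SMC4 and the kleisin NCAPH lay between -1.42 and -1.37. The ratio of NCAPG to NCAPD2 was 0.355 to 0.392 in control, 0.222 to 0.272 in M1 medium, 0.23 to 0.24 with DMSO and 0.316 to 0.349 with IKK16. Differences between classes or partners were not tested: genes of a class are not replicates, and 3 libraries against 3 cannot give an exact two-sided p below 0.1. Several ratios hold the most or the least lowered gene of their class, or the one that rose most or least with IKK16. Their shifts follow in part from that choice. Not every ratio computed is printed.

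FOXM1 and MYBL2 (B-MYB) encode transcription factors of G2/M genes, and MKI67 the proliferation antigen Ki-67. FOXM1 (chromosome 12, 2857680 to 2877174) was at 156, 145 and 159 CPM in control and 33.97, 31.8 and 36.9 CPM in M1 medium (-2.17 ± 0.06, edgeR adjusted p = 6.07e-19). MYBL2 went from 176, 169 and 162 CPM to 44.8, 39.6 and 42.8 CPM (-1.99 ± 0.06). With IKK16 against DMSO, FOXM1 rose by 0.77 ± 0.06 and MYBL2 by 0.605 ± 0.06. MYBL2 was at 59.7, 57.3 and 53.5 CPM with DMSO and 83.4, 84.96 and 91.02 CPM with IKK16.

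**Figure D2:**
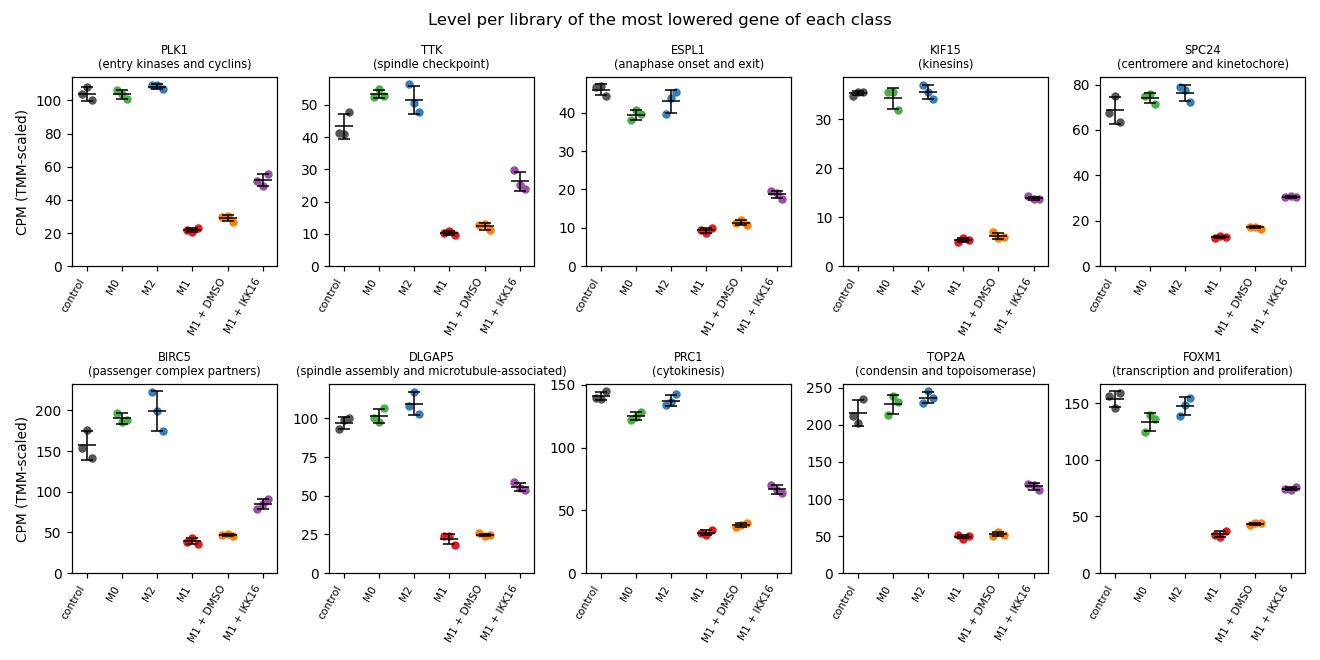
Level in each library (points, TMM-scaled CPM, linear axes from 0) of the gene of each class with the lowest log2 fold change in M1 medium, by group on the x axis, with mean (dash) and SD (bars). In each panel the M1 and M1 + DMSO libraries lie lowest, and the M1 + IKK16 libraries lie between them and the control, M0 and M2 libraries.

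Across the 56 genes, the log2 fold changes of M1 medium against control and of IKK16 against DMSO, which share no library, had a Pearson correlation of -0.691 and a Spearman correlation of -0.495. Without BUB3 these were -0.607 and -0.467. The values are a description over genes that are not independent of each other. SPC24 and ESPL1, among the lowest in M1 medium, rose by 0.83 and 0.71 with IKK16. ECT2, among the least lowered, rose by 0.81.

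**Figure D3:**
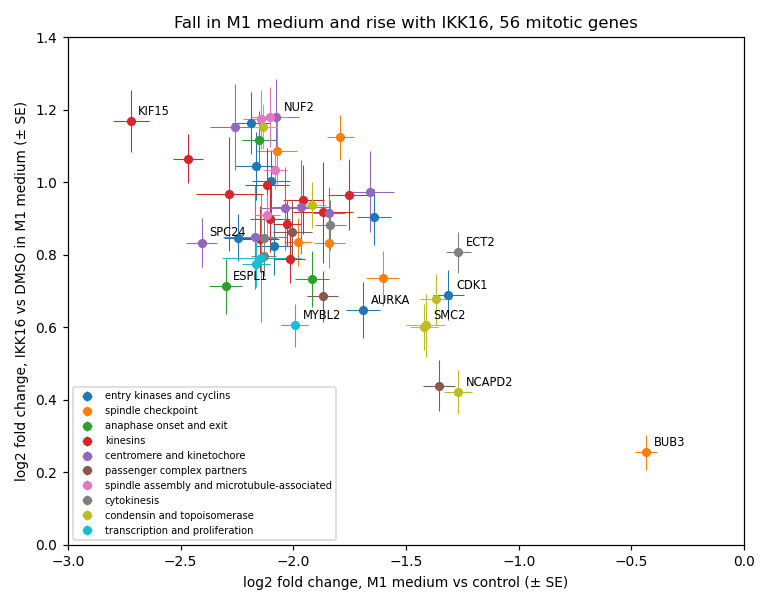
Log2 fold change of each of the 56 genes in M1 medium against control (x axis) and with IKK16 against DMSO in M1 medium (y axis), coloured by class, with SE bars on both axes. BUB3 stands alone at -0.43 and 0.25, and KIF15 lies farthest left.

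Some of the genes were higher with DMSO than in M1 medium without it. Of the 56, 15 were higher and none lower by edgeR, where the background was 2.22% higher and 2.03% lower. At an unadjusted p under 0.05, 29 were higher and 0 lower, against 10.8% and 10.6% of all genes. DESeq2 called 17 higher and 0 lower. Over the 13092 genes to which it gave an adjusted p, it called 793 higher and 491 lower. MYBL2 differed by 0.42 ± 0.06 (edgeR adjusted p = 0.000508), SPC24 by 0.41 ± 0.07, PLK1 by 0.395 ± 0.07 and FOXM1 by 0.35 ± 0.06. These 4 genes kept their call under each of the 14 alternatives run, and the other 11 did not. The median over the 56 was 0.198, and their summed level was 32.1% of control with DMSO and 28.8% without. The count was 4 without M1 with DMSO replicate 2, where 96 of all 17231 genes were higher. It was 5 without M1 replicate 1 (76 of 17227) or M1 replicate 2 (27 of 17230). Without M1 with DMSO replicate 1 it was 6 (44 of 17276).

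**Figure D4:**
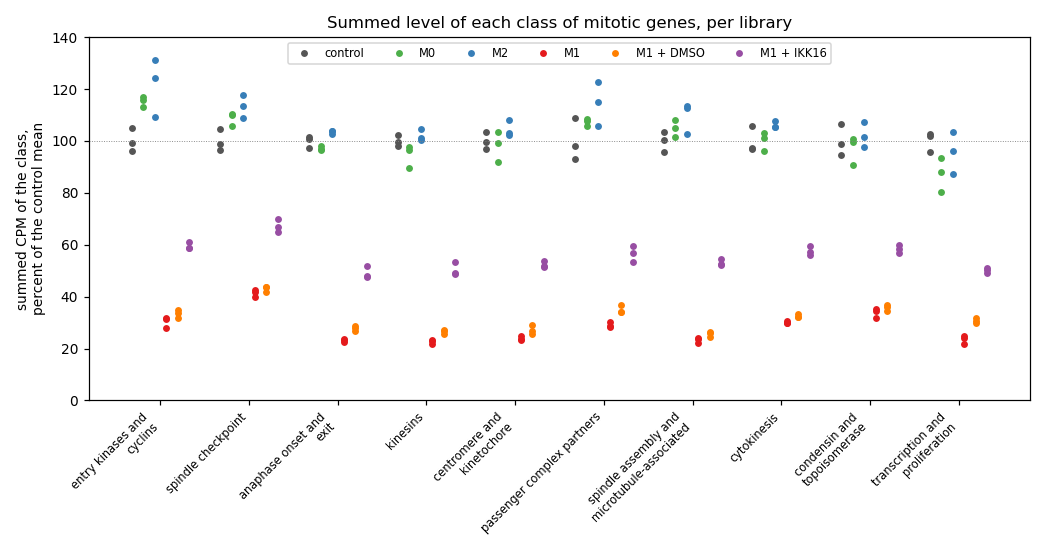
Summed CPM of each class in each library, as a percent of the mean of the 3 control libraries (y axis), by class (x axis) and coloured by group. Summed over all 56 genes, the group means were 28.8% of control in M1 medium, 32.1% with DMSO and 56.3% with IKK16, and 102% and 108% in M0 and M2 medium.

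In M2 medium 12 of the 56 genes were higher than in control and none lower by edgeR, with a background of 5.28% higher and 3.49% lower. They were the cyclin and kinase genes CCNA2, CCNB1, CCNB2 and CDK1, the checkpoint genes BUB3, CDC20 and MAD2L1, and NUF2, SPC25, BIRC5, PTTG1 and HMMR. The libraries of CCNA2, BIRC5 and HMMR overlapped with control. At an unadjusted p under 0.05, 13.5% of all genes were higher in M2 medium and 12.6% lower. CCNB1, the main mitotic cyclin, was at 234, 266 and 235 CPM in control and 359.8, 327 and 282 CPM in M2 medium (0.399 ± 0.07, edgeR adjusted p = 0.00375). MAD2L1 was at 41.1, 40.02 and 44.8 CPM in control and 58.3, 56.5 and 48.7 CPM in M2 medium (0.38 ± 0.07, edgeR adjusted p = 0.00296). CCNB1 and MAD2L1 kept their call under each of the 14 alternatives run, and the other 10 did not. SPC25 was at 25.3, 34.1 and 26.5 CPM in control and 38.5, 36.5 and 34.1 CPM in M2 medium (0.35 ± 0.09, edgeR adjusted p = 0.0257), with groups that nearly touch. The count was 2 without control replicate 1, where 110 of all 17241 genes were higher, and 2 without M2 replicate 1 (87 of 17239). It was 3 without M2 replicate 2 (284 of 17235), and 2 when these groups were fitted by themselves (150 of 16177).

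Against control, M0 medium gave 7 higher and 4 lower calls by edgeR, with a background of 6.67% and 5.09%. At an unadjusted p under 0.05, 12 were higher and 11 lower, against 14.5% and 14% of all genes. DESeq2 called 9 higher and 6 lower. Over the 12193 genes to which it gave an adjusted p, it called 1451 higher and 1238 lower. The higher calls by edgeR were CCNB1, CDK1, TTK, MAD2L1, BUB3, BIRC5 and HMMR. CCNB1 stood at 318, 295 and 303 CPM (0.32 ± 0.07, edgeR adjusted p = 0.0136), above all control libraries. The lower ones were NCAPD2 (-0.22 ± 0.06, edgeR adjusted p = 0.0239), ESPL1 (-0.22 ± 0.06), FOXM1 (-0.204 ± 0.06) and PRC1 (-0.18 ± 0.05). NCAPD2 was at 172, 195 and 193 CPM in M0 medium and ESPL1 at 38.1, 40.6 and 39.8 CPM. FOXM1 was at 124, 139.7 and 136 CPM and PRC1 at 122, 124 and 128 CPM. All 4 lay below every control library. Of the 56 genes, 8 lay below and 12 above every control library. The share of all genes so placed is not given, and nothing is read from these counts. With 5.09% of all genes lower, 4 of 56 is near the background. None of the 11 kept its call under each of the 14 alternatives run. None of the 56 was called without control replicate 1, where 24 were higher and 6 lower of all 17241 genes. None was called without M0 replicate 1, where 55 were higher and 14 lower of 17275. Without M0 replicate 3, 1 of the 56 was higher and 1 lower (577 and 278 of 17247 genes). Without control replicate 3, 0 were lower (329 of 17247 genes). The M0 and M2 comparisons share the control libraries.

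Transcript length varied together with these small differences. Across 54 genes with a known length, its Spearman correlation with the log2 fold change was -0.571 in M0 medium and -0.603 in M2 medium, and -0.336 and -0.292 across 15054 genes of all kinds. In M1 medium against control it was 0.0352 over the 54. These are descriptions over genes that share libraries. The length behind a count is approximate: for 16 of the 54, transcripts whose lengths differ by over 10% have totals within 1% of the highest. With the longest of such transcripts, a choice made after seeing the data, the correlations were -0.532 and -0.575, and over the 38 other genes -0.569 and -0.6. MKI67, a long transcript, was at 75.4, 66.5 and 84.2 CPM in control, 42.4, 79.5 and 58.4 CPM in M0 medium and 50.7, 69.5 and 81.99 CPM in M2 medium. CENPF, a long kinetochore gene, was at 88.1, 74.6 and 90.4 CPM in control, 51.99, 80.3 and 67.6 CPM in M0 and 56.2, 77.95 and 85.04 CPM in M2 medium. Replicate 1 of the M0 and M2 groups was the lowest of its group for both genes. Neither difference between M0 medium and control passed (edgeR adjusted p = 0.183 for MKI67 and 0.0888 for CENPF). With the trend on length removed from each library, 9 of the 56 were higher and 2 lower in M0 medium. In M2 medium 13 were higher. Over all 17034 genes in that fit, 1124 were higher and 668 lower in M0 medium, and 913 higher in M2 medium.

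**Figure D5:**
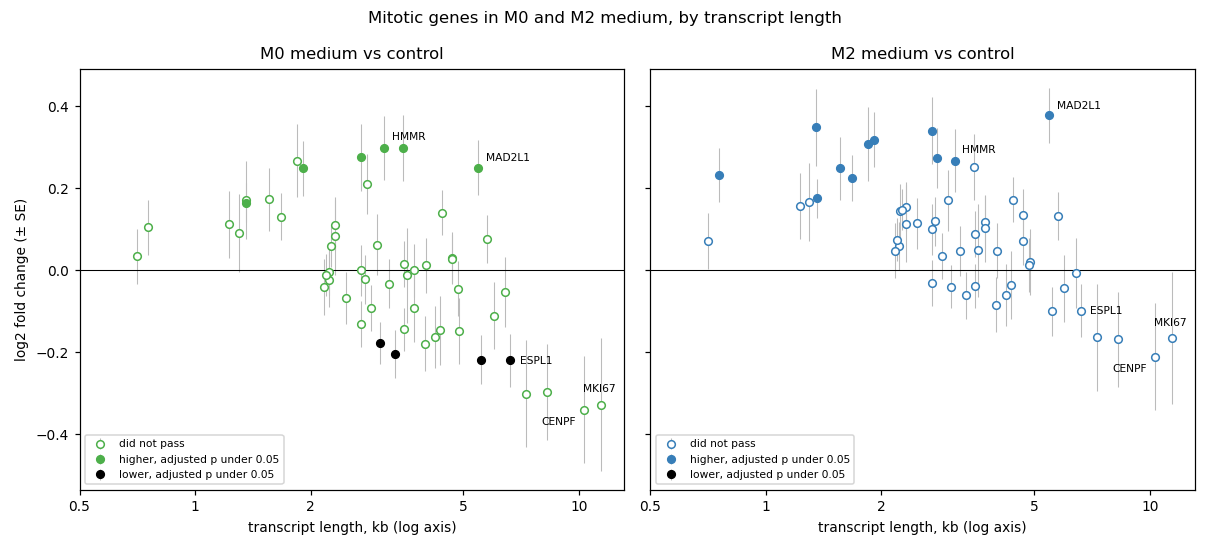
Log2 fold change (y axis, SE bars) of the 54 genes with a known transcript length against that length (x axis, kb, log axis), for M0 medium (left) and M2 medium (right) against control. Filled points passed an adjusted p of 0.05, and the longest transcripts, CENPF and MKI67, lie below 0 in both panels without passing.

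Set against each other, M2 and M0 medium gave no call among the 56 genes (edgeR, smallest adjusted p = 0.614; 8 higher and 0 lower at an unadjusted p under 0.05; 0 by DESeq2), where the background was 0.106% lower and 0% higher. At an unadjusted p under 0.05, 2.2% of all genes were higher and 3.27% lower. The estimate was above 0 in 54 of the 56 genes, with a median of 0.09 against 0.004 over all genes. These genes are not independent of each other and rest on the same libraries, so the 54 are not separate observations. With 1 library left out, the median ran from 0.068 to 0.104.

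Related genes outside the 56 were followed in lists made by function. Their counts stand beside 31.9% lower and 32.9% higher over all genes in M1 medium, and 14.4% higher and 12.9% lower with IKK16 against DMSO, and nothing particular to a list is read from its count. Of 33 other kinetochore and centromere genes, 31 fell in M1 medium and none rose (median -1.31), led by SKA1 (-2.47 ± 0.11), CENPN (-2.29 ± 0.05) and KNL1 (-2.15 ± 0.12), and 25 rose with IKK16. Of 33 other spindle, cytokinesis and mitotic kinase genes, 32 fell (median -1.94), led by the midbody kinase CIT (-2.53 ± 0.10), DEPDC1 (-2.51 ± 0.09) and PSRC1 (-2.24 ± 0.09). The member that rose was WEE1, which inhibits CDK1 (0.29 ± 0.05, edgeR adjusted p = 6.495e-05). With IKK16, 31 of these rose and NUMA1 fell (-0.23 ± 0.07). All 3 condensin II genes fell, from NCAPG2 (-1.57 ± 0.07) to NCAPH2 (-0.52 ± 0.07).

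The remaining lists had medians nearer to 0 in M1 medium, where the median over all genes tested was -0.00107. Of 13 cohesin genes, 7 fell and 3 rose in M1 medium (median -0.31). ESCO2 (-1.81 ± 0.07) and CDCA5 (-1.59 ± 0.07), which act on cohesin in S phase, were lowest, while the loader NIPBL rose (0.59 ± 0.11). Of 17 genes of the anaphase-promoting complex and its regulators, 7 fell and 2 rose (median -0.15), with UBE2S (-1.46 ± 0.13) and the inhibitor FBXO5 (-1.199 ± 0.08) lowest. Of 15 kinesins of interphase transport, 4 fell and 2 rose (median 0.01), both shares below those of all genes. KIF21B was lowest (-2.44 ± 0.44, at a mean of 1.08 CPM in control and 0.198 CPM in M1 medium), and KIF5B, a conventional kinesin, rose by 0.57 ± 0.07. Of 10 tubulins, 5 fell and 4 rose, from TUBA1B (-0.9999 ± 0.04) to TUBA1A (3.27 ± 0.11). Of 11 DREAM and MuvB genes, 6 fell and 3 rose, with LIN9 (-1.15 ± 0.08) lowest and LIN37 (0.44 ± 0.09) highest, and RBL2, which encodes the p130 protein of DREAM, rose by 0.32 ± 0.06.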

How the data were processed

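Polyadenylated RNA was sequenced in 18 libraries. The authors deposited, for each RefSeq transcript, expected counts in multiples of 0.5 without normalisation. Per the submitters' processing notes, the build was hg38 and the tools were Trimmomatic, BWA 0.7.17 and HOMER 4.10. What each tool did, how multiply matching reads were handled and whether strand was used is not given in the sources used here. Of 70507 transcripts, 69830 were named with a RefSeq table (GRCh38.p14) and 327 with GENCODE 29. The 350 without a name, 0.092 to 0.112% of counts, were left out. Each gene was represented by its transcript of highest total, and counts were rounded. Members and lists were chosen with earlier results of these data known.

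edgeR 4.0.16 in R 4.3.3 (TMM, filterByExpr, quasi-likelihood test) was fitted to the 6 groups together, and genes were called at a two-sided adjusted p below 0.05 (Benjamini-Hochberg, all genes tested). SE was computed from the log2 fold change and the F statistic. The code was tested on simulated data. Replicates differed by more than sampling noise (chi-square per gene 2.64 to 20.4). Lengths are those of GENCODE 29 transcripts paired with the RefSeq entry. Values in every library are given for the most and the least lowered gene of each class in M1 medium, for genes called against the majority, and for the 3 largest changes with IKK16 and in M2 and M0 medium. Further members named beside them, and which genes of the other lists are printed among the up to 3 called per direction, were chosen after their values were seen. Alternatives were DESeq2 1.42.0, its size factors in edgeR, other filters, a fit of each pair of groups, a replicate block, the longest transcript, removal of the length trend, and leaving out each library. Some luminal markers are not reported here.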

Additional observations from a re-analysis of the deposited data

How the results depend on the processing

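The counts of 56 genes lower in M1 medium than in control, M0 or M2 medium, 56 higher with IKK16 than with DMSO and 56 lower with IKK16 than in control were the same under all 14 alternatives of each comparison. For M0 medium against control (7 higher, 4 lower), 2 of the 56 were lower with the length trend removed (668 of all 17034 genes). When these groups were fitted by themselves, 0 were lower (274 of 16127 genes). With 1 library left out, the M0 counts ran from 0 to 10 higher and from 0 to 6 lower. Over all genes they ran from 24 to 1534 higher and from 6 to 1196 lower. For M2 medium (12 higher) the count was 2 when these groups were fitted by themselves and ran from 2 to 17 with 1 library left out. Over all genes it was 150 of 16177 in the first fit, and ran from 87 to 1518 with 1 library left out. For DMSO against M1 medium alone (15 higher) the count ran from 4 to 11 with 1 library left out, and that over all genes from 27 to 862. The cause was not tested. Same-numbered libraries did not deviate together across all groups. Correlations of their deviations ran from -0.149 to 0.152 over 45 pairs, highest between replicate 1 of M0 and of M2 medium. Of 18 libraries, 6 were closest to their own number. With the replicate block the counts were 56 for the M1 and IKK16 comparisons, 7 higher and 4 lower for M0 medium, 12 higher for M2 medium and 12 for DMSO. With the shortest or longest of nearly tied transcripts, or without genes that have them, choices added after seeing the data, the correlations of length and change kept their sign. Levels are relative to all RNA of a library, so a change in RNA per cell is not seen.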
